A study of Mus musculus with 24 samples.

Results

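The 9 genes described here, out of 51733 in the count table, are transcription factors and stress effectors downstream of eIF2α: Atf4, Atf5, Cebpb, Cebpg, Ddit3, Trib3, Chac1, Sesn2 and Ddit4. They were taken by symbol, which the table writes in capitals (ATF4, ATF5, DDIT3, CEBPB, CEBPG, TRIB3, CHAC1, SESN2 and DDIT4), and all 9 were found. Phosphorylation of eIF2α slows general translation while favouring translation of a few transcripts with upstream open reading frames, Atf4 among them. The ATF4 protein pairs with C/EBP factors and switches on genes for amino acid supply, tRNA charging and feedback control of the stress response. In the hippocampus, lowered eIF2α phosphorylation is known to favour long-term memory, and ATF4 is known as a brake on it.

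RNA came from hippocampi of adult male C57BL/6 mice, 2 to 3 months old. Conditional knock-in (cKI) mice had the eIF2α A/A genotype, in which the phosphorylated serine is replaced by alanine, a floxed transgene fTg of wild-type eIF2α, and Cre driven by the CaMKIIα promoter, which removes the transgene in excitatory forebrain neurons. Controls were CaMKIIα-Cre-positive, so both genotypes carried Cre, and the labels do not say whether these animals held fTg. Mice were naive or taken 1 h after fear conditioning, a pairing of a tone with a foot shock; a weak and a strong protocol are described, and the labels do not say which was used. From each of 12 mice, 1 sample of the lysate was sequenced as input and 1 as the RiboTag immunoprecipitate (IP), the RNA bound to epitope-tagged ribosomes of Cre-positive cells. This gave 8 groups of 3 mice. Replicates are therefore separate animals, with the hippocampi of 1 mouse pooled, while an input and its IP share a mouse.

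Inputs held 28.8 to 37.7 M counts each, and IPs 30.6 to 43.5 M. Levels are in CPM (counts relative to library size, scaled by TMM over 24 libraries), a fold change is on the log2 scale with its SE, and a gene is said to rise or fall only at an edgeR adjusted p under 0.05. Rpl22, the tagged ribosomal protein, was 2.13 higher on the log2 scale in IPs than in inputs, and Camk2a was 0.96 higher. Eif2s1, which encodes eIF2α, was higher in cKI mice by 0.28 in inputs (SE 0.04, adjusted p 0.0024) and by 0.22 in IPs (SE 0.04, adjusted p 0.032); its row cannot tell the mutant from the wild-type transcript. Sequencing lane largely followed genotype. All 6 cKI inputs shared a lane with 2 naive control inputs, and the other 4 control inputs were on another. The 3 naive cKI IPs and 1 cKI IP at 1 h were on a lane with no control IP. Where lane is added to a fit as a covariate, its effect rests on the only group split over lanes. These are the naive controls in inputs and the cKI mice at 1 h in IPs. A call lost in that fit therefore does not measure how much of a difference comes from lane. Lane also followed fraction: the only lane that held both fractions held inputs of controls and IPs of cKI mice. Naive cKI replicate 3 had a count for 23453 genes in its input, against 22130 to 22943 in the other 11 inputs.

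Atf4 was lower in cKI mice in both fractions. In inputs, naive cKI mice had 85.6, 80.2 and 84.7 CPM and naive controls 102, 117 and 104. At 1 h the cKI inputs had 87.7, 89.0 and 85.7 CPM and the controls 102, 120 and 111. All 6 cKI inputs lay below all 6 control inputs, and among the 17232 genes tested in inputs 3.55% had no overlap between the genotypes. The means were 85.5 ± 3.04 CPM in cKI and 109 ± 8.15 in control inputs (SD, n = 6 mice each), a log2 fold change of -0.33 (SE 0.04, adjusted p 0.0016). The difference was the same size in naive mice (-0.33, SE 0.06, adjusted p 0.02) and at 1 h (-0.33, SE 0.06, adjusted p 0.043), and the test of whether training changed it gave 0.01 (SE 0.09, adjusted p 1.0). The mean difference was -0.37 with lane as a covariate, and its adjusted p 0.079. Among the naive inputs of the shared lane alone, 3 cKI against 2 controls, Atf4 was lower by the same margin (-0.35, adjusted p 0.031). Omitting naive cKI replicate 1 or replicate 2 ended the naive call (adjusted p 0.063 and 0.087). The call at 1 h ended in 8 of 12 omissions of a library: naive cKI 1 and 2, all 3 cKI libraries at 1 h, naive control 1, and controls 2 and 3 at 1 h (adjusted p 0.052 to 0.22).

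In IPs Atf4 stood at 97.5, 111 and 103 CPM in naive cKI mice and at 133, 153 and 160 in naive controls. At 1 h the cKI IPs had 115, 145 and 127 CPM and the controls 150, 178 and 166. Within each training state the genotypes did not overlap, as was so for 26.7% of the 15238 genes tested in naive IPs and 11.3% at 1 h. Over both states they did overlap: the highest cKI value, of replicate 2 at 1 h, passed the lowest control value, of naive replicate 1 (1.67% of genes had no overlap there). The means were 116 ± 17.3 CPM in cKI and 157 ± 15.3 in control IPs (SD, n = 6 mice each), and Atf4 fell by 0.43 on the log2 scale (SE 0.07, adjusted p 0.01). It fell by 0.52 in naive mice (SE 0.10, adjusted p 0.018), and the difference at 1 h was -0.34 (SE 0.10, adjusted p 0.49); the test of training on the genotype difference gave 0.18 (SE 0.13, adjusted p 0.72). Omitting naive control replicate 2 or replicate 3 ended the naive call (adjusted p 0.11 and 0.093). With lane as a covariate Atf4 was at -0.27 in the mean (adjusted p 0.61) and in naive IPs (adjusted p 0.73). Within the lane that held 2 cKI and 3 control IPs at 1 h it was at -0.26 (adjusted p 0.72 by edgeR).

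**Figure D1:**
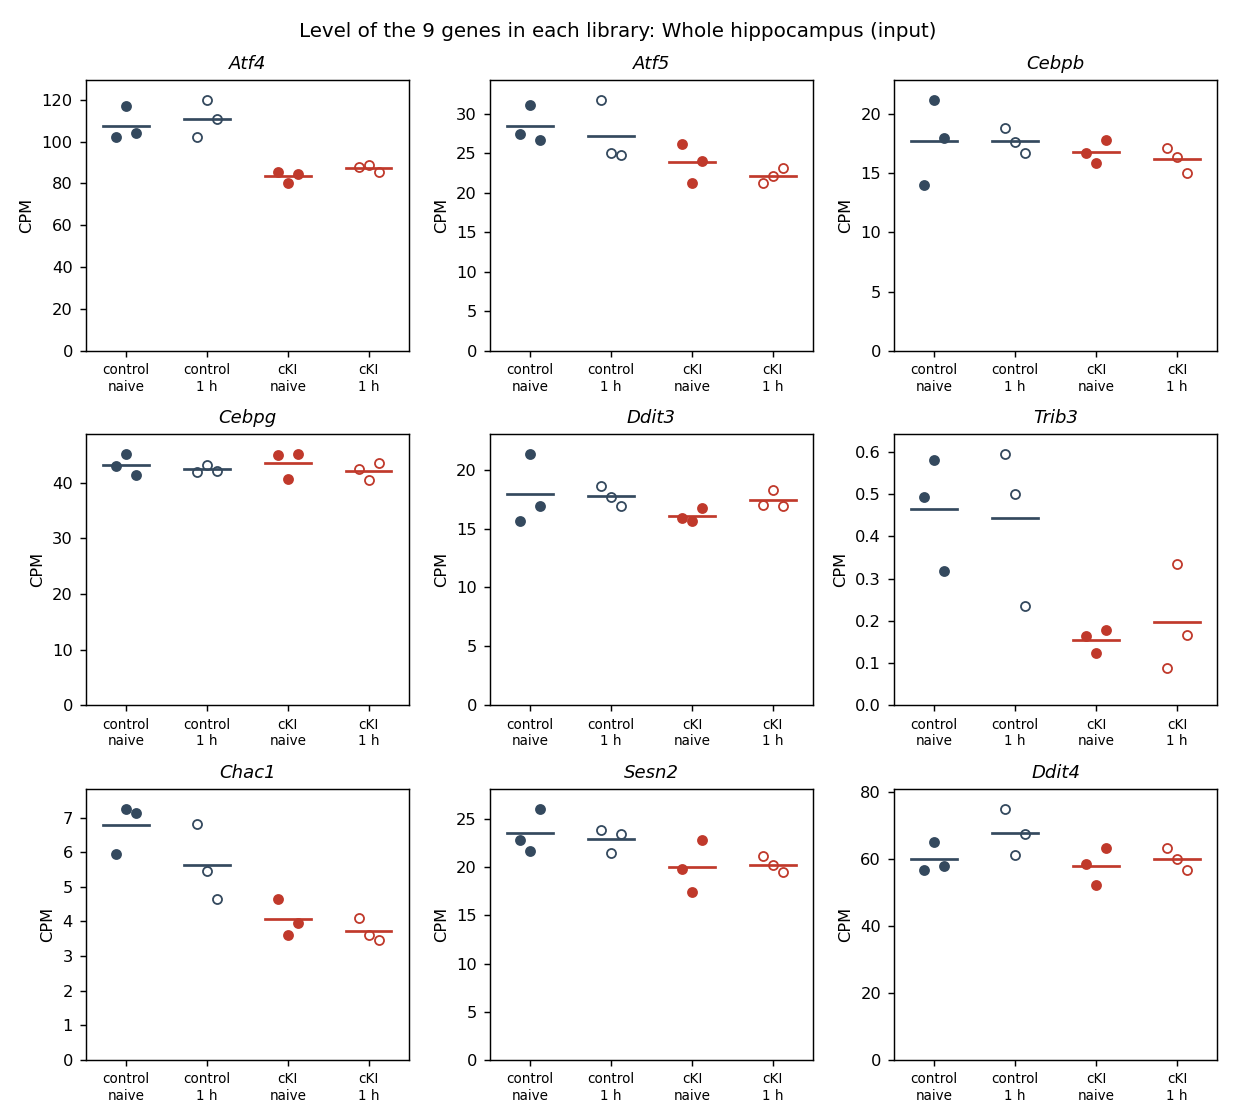
CPM of each of the 9 genes in the 12 input libraries (vertical axes from 0), by genotype and training; points are mice, filled for naive and open for 1 h after conditioning, and bars are group means of 3 mice. Atf4 lies between 80.2 and 89.0 CPM in cKI and between 102 and 120 CPM in control inputs, and Cebpg is nearly level.

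**Figure D2:**
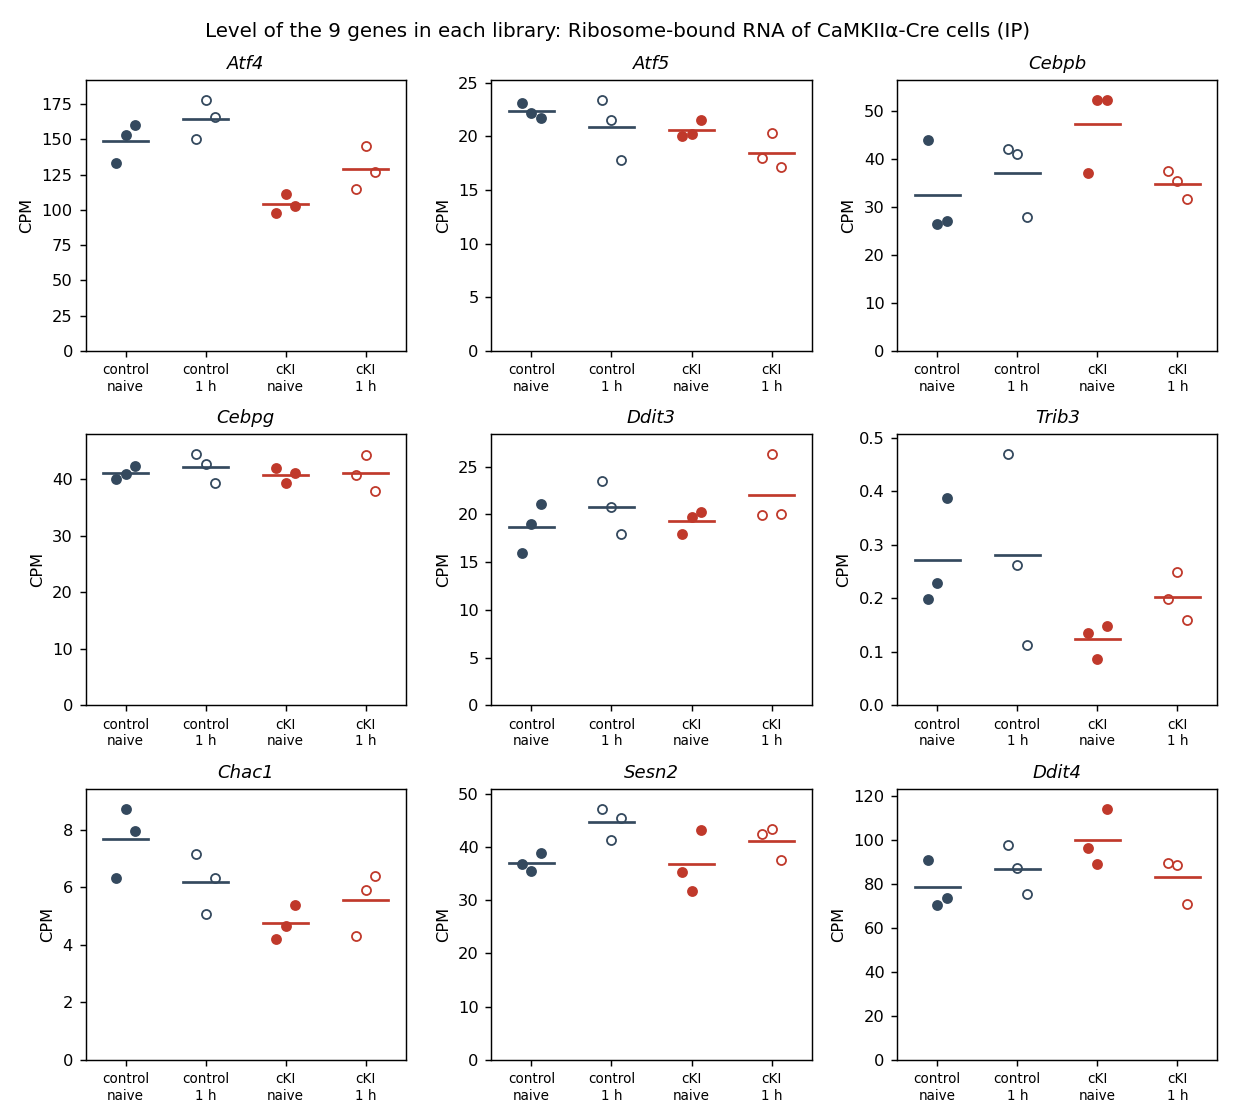
CPM of each of the 9 genes in the 12 IP libraries (vertical axes from 0), drawn as for the inputs. Atf4 lies between 97.5 and 145 CPM in cKI and between 133 and 178 CPM in control mice, and Cebpb varies widely within groups.

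Counting all 9 genes, 3 fell in cKI inputs in the mean of both training states (Atf4, Chac1 and Trib3) and 0 rose, where 3.15% of all genes tested in inputs were called, and 2% were lower. In naive inputs 2 fell (Atf4 and Chac1; 0.859% of all genes called, 0.557% lower), and at 1 h 1 fell (Atf4; 0.267%, 0.197% lower). Of the 8 genes that passed the count filter in IPs, 1 fell in the mean (Atf4; 1.69% of all genes called, 1.04% lower) and 1 in naive mice (Atf4; 3.7%, 2.5% lower). At 1 h 0 of 8 were called in IPs (0.0591% of all genes), with 1 at an unadjusted p under 0.05 (Atf4) and 0 called by DESeq2. With lane as a covariate the counts in the mean contrast were 0 in both fractions.

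Markers of other cell types moved with genotype in the inputs too. The summed CPM of 10 oligodendrocyte markers was 3600 to 4400 in cKI and 4020 to 5770 in control inputs, and 7 of the 10 fell. That of 10 inhibitory neuron markers was 740 to 818 in cKI and 823 to 918 in control inputs, with 2 of 10 called. Of 10 astrocyte markers 3 fell, of 10 endothelial markers 1, and of 10 microglia and 10 choroid plexus markers 0. Of all genes tested in inputs 2% were lower. The call of Gfap ended in 10 of 12 omissions of a library, those of Fgfr3 and Emcn in 9 each and that of Aldoc in 3. With lane as a covariate these calls were lost, as were those of Pvalb, Slc32a1, Cldn11, Cnp, Mag, Mobp and Mog. Mbp kept its call (edgeR adjusted p 0.049). The 10 excitatory neuron markers summed to 6420 to 7060 in cKI and 6000 to 6950 in control inputs, with 0 called (0 also in IPs). In IPs the oligodendrocyte sum was 260 to 333 in cKI and 280 to 393 in control mice, with 2 of 10 called, and that of 10 astrocyte markers was 599 to 736 and 697 to 843. All of these markers had a count in each of the 12 inputs. In the 12 IPs all did except choroid plexus markers, of which 7 of 10 did. The part of these cell types in the differences of Atf4, Chac1 and Trib3 was not tested. In whole tissue fewer cells of a type and less RNA per cell cannot be told apart.

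Atf5, the closest relative of Atf4 among the 9 and likewise translated through upstream open reading frames, showed a smaller difference that did not pass the test. Its inputs had 26.2, 21.3 and 24.1 CPM in naive cKI mice, 21.2, 22.2 and 23.1 in cKI mice at 1 h, 27.5, 31.2 and 26.7 in naive controls and 31.8, 25 and 24.8 in controls at 1 h. The genotypes were apart within each training state, as was so for 20.1% of genes in naive inputs and 22.8% at 1 h, but overlapped across them. The mean log2 difference was -0.25 (SE 0.07, adjusted p 0.065) in inputs and -0.15 (SE 0.07, adjusted p 0.3) in IPs, and DESeq2 called the former (adjusted p 0.022). In the RefSeq annotation Atf5 overlaps Il4i1b and Nup62, and Ddit3 overlaps Mars1 and Mbd6, so reads counted without strand could be shared there.

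The C/EBP-type factors that pair with ATF4 did not change with genotype by the test. Cebpg, a partner that binds the amino acid response elements of target genes together with ATF4, varied little between libraries of a fraction: 40.4 to 45.1 CPM over the 12 inputs and 37.9 to 44.4 over the 12 IPs. Its coefficient of variation over libraries was 3.81% in inputs and 4.88% in IPs, and its mean genotype difference was 0.03 (SE 0.04, adjusted p 0.7) in inputs. Ddit3, which encodes the C/EBP-homologous protein CHOP of prolonged stress, ranged from 15.6 to 21.3 CPM in inputs and from 16.0 to 26.3 in IPs. Its genotype difference was -0.07 (SE 0.06, adjusted p 0.56) in inputs and 0.07 (SE 0.10, adjusted p 0.73) in IPs.

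Cebpb, a C/EBP factor with known roles in hippocampal memory, was uneven between IPs. Naive cKI IPs had 37.1, 52.4 and 52.4 CPM and naive control IPs 44.0, 26.5 and 27.2. At 1 h the cKI IPs had 37.6, 35.4 and 31.6 CPM and the controls 42.2, 41.1 and 28. The genotypes overlapped in both states, and the coefficient of variation over the 12 IPs was 23.5% against 10.8% over the inputs. The naive difference was 0.54 (SE 0.22, adjusted p 0.18), that at 1 h was -0.08 (SE 0.22, adjusted p 0.99), and the test of the difference between them gave -0.62 (SE 0.31, adjusted p 0.56).

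Chac1, which encodes an enzyme that degrades glutathione and is a strong target of ATF4, fell in cKI inputs. Naive cKI inputs had 4.66, 3.60 and 3.95 CPM and naive controls 5.94, 7.26 and 7.15. At 1 h the values were 4.11, 3.61 and 3.46 in cKI and 6.82, 5.45 and 4.64 in control inputs. The genotypes overlapped by 1 pair of mice, control replicate 3 at 1 h and naive cKI replicate 1. The means were 3.90 ± 0.444 CPM in cKI and 6.21 ± 1.05 in control inputs (SD, n = 6 mice each), a log2 fold change of -0.64 (SE 0.10, adjusted p 0.0057). It was -0.71 in naive mice (SE 0.14, adjusted p 0.036) and -0.58 at 1 h (SE 0.15, adjusted p 0.17). With lane as a covariate the mean was -0.55 with an adjusted p of 0.15, and within the shared lane the naive difference was -0.66 with an adjusted p of 0.075. The naive call of Chac1 ended in 9 of 12 omissions: all 6 cKI libraries, naive controls 2 and 3, and control 2 at 1 h (adjusted p 0.051 to 0.15).

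The IPs gave a like picture for Chac1 in naive mice, where the test was missed. Naive cKI IPs had 4.19, 4.67 and 5.38 CPM and naive controls 6.32, 8.74 and 7.98 (log2 -0.69, SE 0.18, adjusted p 0.053). These groups did not overlap, as was so for 26.7% of genes in naive IPs. At 1 h the cKI IPs had 4.32, 5.92 and 6.40 CPM and overlapped with the controls at 7.17, 5.07 and 6.32 (log2 -0.15, SE 0.18, adjusted p 0.98). The difference between the 2 states was 0.54 (SE 0.26, adjusted p 0.54). DESeq2 called Chac1 in naive IPs (adjusted p 0.0097), and with lane as a covariate it was at -0.18 (adjusted p 0.89).

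Trib3, a pseudokinase that binds ATF4 and dampens its activity, was near the lower limit of the counts. Naive cKI inputs had 6, 5 and 6 counts and naive controls 19, 22 and 13. At 1 h there were 3, 12 and 6 counts in cKI inputs and 19, 18 and 9 in controls. The naive groups did not overlap, as was so for 20.1% of genes in naive inputs, and those at 1 h did. Trib3 averaged 0.176 ± 0.0843 CPM in cKI and 0.454 ± 0.145 in control inputs (SD, n = 6 mice each), a log2 fold change of -1.33 (SE 0.34, adjusted p 0.049). This call ended in 9 of 12 omissions: all 3 naive cKI libraries, cKI 1 and 3 at 1 h, naive controls 1 and 2, and controls 1 and 2 at 1 h (adjusted p 0.067 to 0.13). Trib3 was at -1.79 with lane as a covariate (adjusted p 0.13), and its call also ended with library totals in place of TMM (adjusted p 0.052) and with the replicate number as a block (0.064). In IPs it had 3 to 15 counts and was not tested; the means were 0.163 ± 0.0555 CPM in cKI and 0.277 ± 0.131 in control mice.

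**Figure D3:**
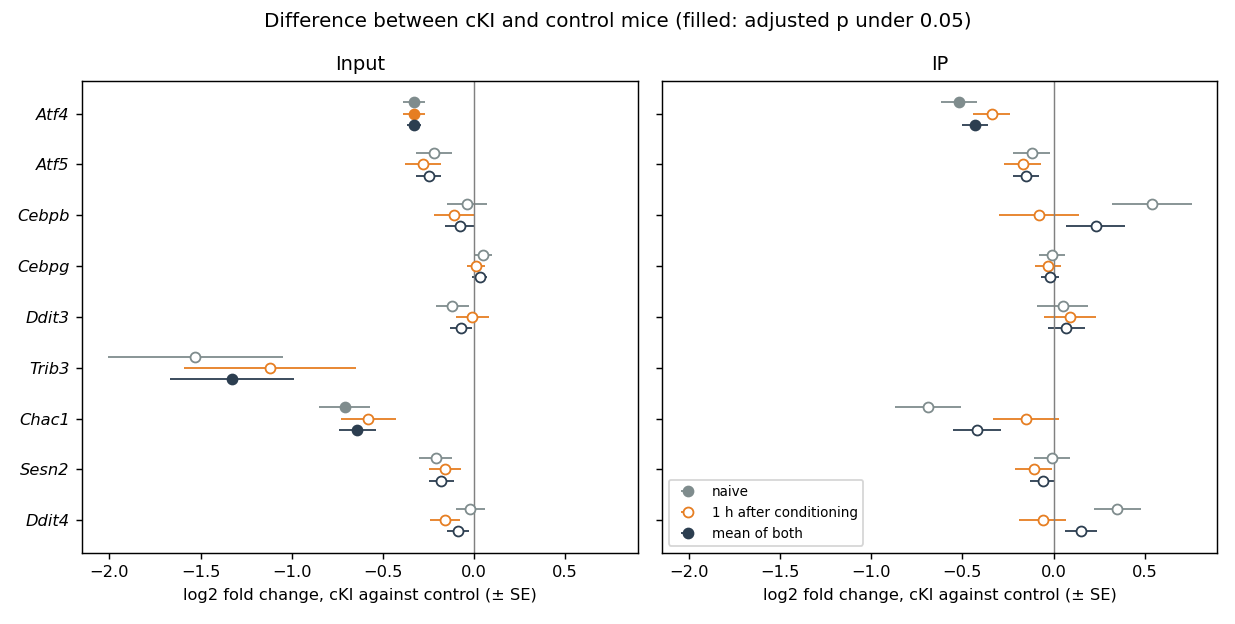
Log2 fold change of cKI against control mice with its SE for each of the 9 genes, in inputs (left) and IPs (right), in naive mice, at 1 h and in the mean of both; filled points have an edgeR adjusted p under 0.05. Atf4 is at -0.33 in inputs and -0.43 in IPs in the mean, Chac1 at -0.64 in inputs, and Cebpg at 0.03; Trib3 was not tested in IPs.

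The upstream sequence of the 3 genes that fell in inputs is shown to place the binding element of ATF4 with C/EBP factors. The windows are the 250 bases before the annotated start in RefSeq (GRCm38.p6), given 5′ to 3′ on the strand of the gene: chr15:80254934-80255183 (+) for Atf4, chr2:119350992-119351241 (+) for Chac1 and chr2:152344061-152344310 (-) for Trib3. Capitals mark a match to the core TGATGNAA on either strand.
Chac1: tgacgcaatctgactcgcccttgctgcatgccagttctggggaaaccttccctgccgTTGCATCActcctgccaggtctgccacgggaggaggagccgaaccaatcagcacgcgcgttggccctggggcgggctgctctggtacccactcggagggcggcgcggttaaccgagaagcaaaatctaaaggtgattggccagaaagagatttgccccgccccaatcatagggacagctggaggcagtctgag
Atf4: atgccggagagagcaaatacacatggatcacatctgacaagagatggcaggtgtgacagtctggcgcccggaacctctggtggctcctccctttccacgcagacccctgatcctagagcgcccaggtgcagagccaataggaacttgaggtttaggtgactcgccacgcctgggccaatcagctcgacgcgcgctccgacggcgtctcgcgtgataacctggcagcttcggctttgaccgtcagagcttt
Trib3: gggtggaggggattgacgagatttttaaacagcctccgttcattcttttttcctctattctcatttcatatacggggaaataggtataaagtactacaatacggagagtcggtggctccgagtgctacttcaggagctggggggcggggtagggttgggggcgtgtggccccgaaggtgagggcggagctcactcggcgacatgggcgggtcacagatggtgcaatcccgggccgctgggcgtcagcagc
Chac1 held 1 match, TTGCATCA, on the opposite strand at bases -193 to -186 from the start. The other 8 genes had none in their windows (10 windows over the 9 genes, since Atf5 has 2 starts), and 3.45% of 32851 RefSeq windows of this length held the core. The cAMP response element TGACGTCA (1.55% of windows), the glucocorticoid response element (0.387%) and the ER stress element (0.113%), searched on both strands, had no match in the 10 windows. A match describes the letters only.

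Sesn2 and Ddit4 restrain the mTORC1 kinase, which promotes translation and growth, Sesn2 also as a leucine sensor and Ddit4 as a gene known to respond to glucocorticoids and hypoxia. Sesn2 was at 17.4 to 22.8 CPM in cKI and 21.5 to 26.1 in control inputs (log2 -0.18, SE 0.07, adjusted p 0.14), and its IP difference was -0.06 (SE 0.07, adjusted p 0.68). Ddit4 was at 52.1 to 63.2 CPM in cKI and 56.7 to 75.0 in control inputs (log2 -0.09, SE 0.06, adjusted p 0.38). In naive IPs Ddit4 had 96.2, 88.7 and 114 CPM in cKI and 90.9, 70.5 and 73.4 in control mice, with 1 control inside the cKI range (log2 0.35, SE 0.13, adjusted p 0.15). At 1 h that difference was -0.06 (SE 0.13, adjusted p 0.99), and the test between the states gave -0.40 (SE 0.19, adjusted p 0.54).

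Beyond Chac1 and Trib3, a list of 49 known ATF4 targets held genes of amino acid metabolism, transport and tRNA charging and others, such as Atf3, Nupr1 and Vegfa. The list was chosen with earlier results of these data known. In the mean of both training states 14 of the 47 tested in inputs fell in cKI mice and 0 rose, where 2% of all genes tested were lower. Of these, 12 belong to the former classes, and the other 2 are Nupr1, a stress-induced chromatin protein (-0.66, SE 0.14, adjusted p 0.023), and Sqstm1, an autophagy receptor (-0.12, SE 0.03, adjusted p 0.037). Its median log2 difference was -0.12, with 40 of 47 negative, against a median of 0 over all genes tested. By state, 3 fell in naive inputs (median -0.13, 0.557% of all genes lower) and 2 at 1 h (median -0.11, 0.197% lower). Slc7a3, a carrier of basic amino acids, fell from 7.26 ± 0.907 to 5.03 ± 0.913 CPM (log2 -0.52, SE 0.09, adjusted p 0.0069). Asns, asparagine synthetase, fell from 84.2 ± 3.91 to 72.4 ± 2.52 CPM (log2 -0.19, SE 0.03, adjusted p 0.0074). Psph, the last enzyme of serine synthesis, fell by 0.31 (SE 0.05, adjusted p 0.0075), Aldh18a1 of proline synthesis by 0.23 (SE 0.04, adjusted p 0.0076) and Nars, which charges asparagine tRNA, by 0.15 (SE 0.03, adjusted p 0.0083). These 5 calls held in each of the 12 omissions of a library and were lost with lane as a covariate, where 0 of the 47 were called. Over the alternatives other than omissions the estimates were -0.53 to -0.49 for Slc7a3, -0.21 to -0.19 for Asns and -0.39 to -0.3 for Psph. Those of Aldh18a1 were -0.24 to -0.2, and those of Nars -0.18 to -0.15. The count of 14 was 9 with library totals in place of TMM. It was 7 without naive cKI 2. Leaving out cKI 1, 2 or 3 at 1 h gave 8, 5 or 6, and leaving out control 1 or 2 at 1 h gave 8 or 7.

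In IPs 5 of 46 tested ATF4 targets fell and 0 rose in the mean of both states, with a median of -0.07 and 36 negative. Of all genes tested in IPs 1.04% were lower there. By state, 6 fell in naive IPs (median -0.12, 2.5% of all genes lower). At 1 h 0 were called (median -0.07, 0.0591% of all genes called), and 0 differed between the states by the interaction test. Slc7a3 fell from 4.09 ± 1.11 to 2.06 ± 0.364 CPM (log2 -0.94, SE 0.13, adjusted p 0.0042; -1.30 in naive mice and -0.59 at 1 h), Mthfd2 of mitochondrial folate metabolism by 0.54 (SE 0.08, adjusted p 0.0074) and Slc1a4, a carrier of alanine and serine, by 0.38 (SE 0.06, adjusted p 0.0068). The other 2 were Slc6a9, a glycine transporter, and Bcat1, which handles branched-chain amino acids. Slc7a3, Slc1a4 and Bcat1 were called in both fractions, 60% of the calls in IPs and 21.4% of those in inputs. DESeq2 called 9 and the fit with lane as a covariate 0. Slc6a9 lost its call in 7 of 12 omissions and Bcat1 in 10 of 12 in IPs. The count was 8 without naive control 1; it was 3 when naive cKI 1, cKI 1 or 2 at 1 h, naive control 2 or 3, or control 2 or 3 at 1 h was left out.

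**Figure D4:**
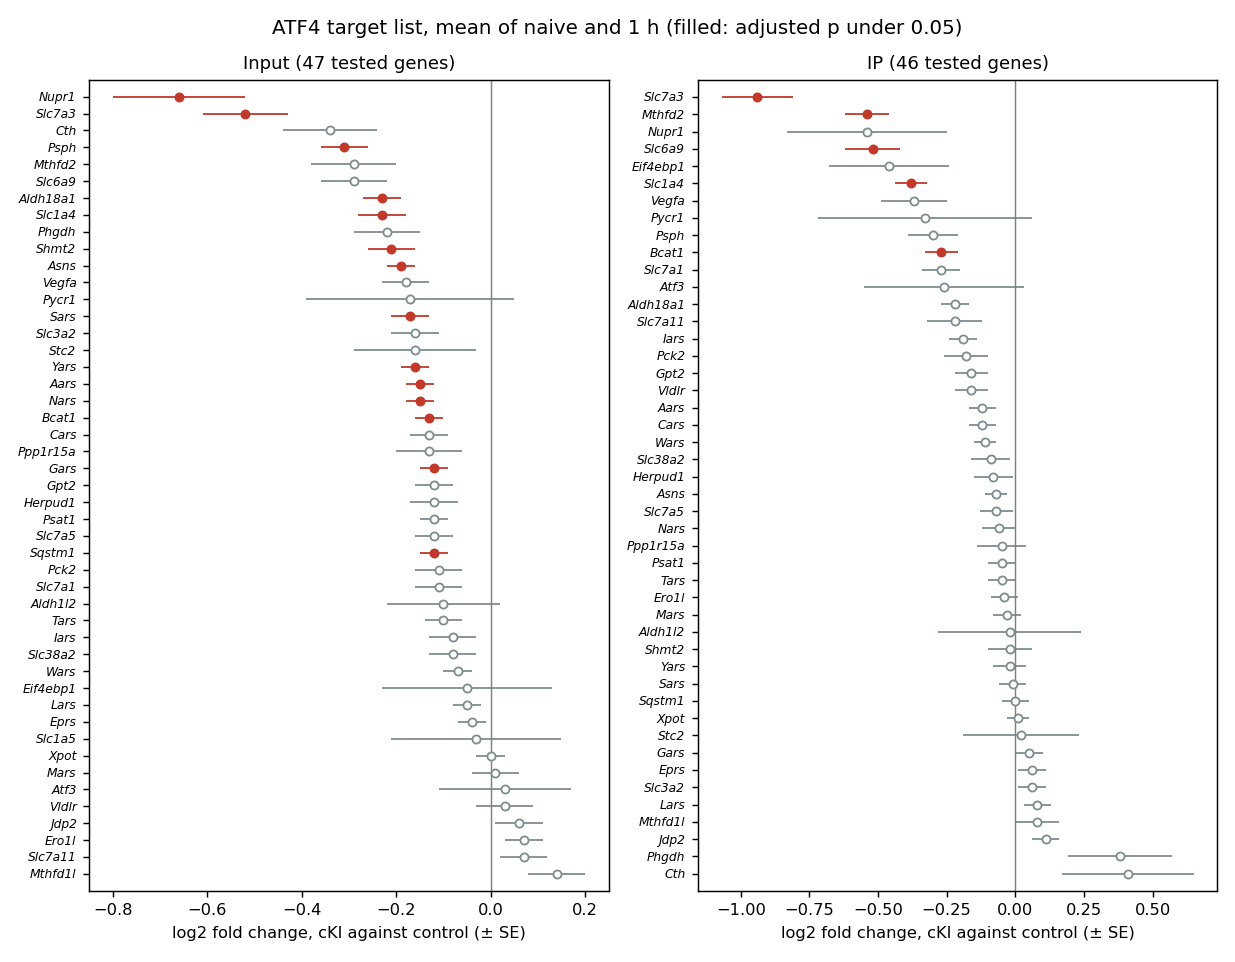
Log2 fold change of cKI against control mice (mean of naive and 1 h) with its SE for each tested gene of the ATF4 target list, ordered by value, in inputs (left, 47 genes) and IPs (right, 46 genes); the scales of the horizontal axes differ, and filled points have an edgeR adjusted p under 0.05. In inputs 14 genes and in IPs 5 genes are filled, and all of them lie below 0.

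The other lists around the 9 genes are given for the mean of both training states, where 3.15% of all genes were called in inputs and 1.69% in IPs. Of the basic leucine zipper family, the wider family of ATF and C/EBP factors, 0 of 26 tested were called in inputs (median 0.01) and 0 of 25 in IPs (median -0.01). Of the kinases, phosphatase subunits and regulators of eIF2, 0 of 13 were called in inputs and 1 in IPs, Impact, an inhibitor of the eIF2 kinase GCN2, at -0.22 (SE 0.05, adjusted p 0.034). The Impact call ended in 9 of 12 omissions: naive cKI 1 and 3, all 3 cKI libraries at 1 h, and controls 2 and 3 of either state (adjusted p 0.055 to 0.13). Its adjusted p was 0.6 with lane as a covariate. Among p53 and mTOR stress genes, to which Sesn2 and Ddit4 are related, 1 of 18 fell in IPs: Deptor, another inhibitor of mTOR, from 21.0 ± 4.05 to 13.2 ± 1.09 CPM (log2 -0.65, SE 0.07, adjusted p 0.001; adjusted p 0.52 with lane as a covariate). Of the 8 tested paralogs of the 9 genes (Trib1, Trib2, Chac2, Sesn1, Sesn3, Ddit4l, Cebpa and Cebpd) 0 were called in the mean genotype contrasts. Sesn1 rose in naive cKI IPs (log2 0.49, SE 0.12, adjusted p 0.04). That call ended when naive cKI 2 or 3, naive control 2 or 3, or control 2 at 1 h was left out (adjusted p 0.056 to 0.2), and with lane as a covariate (0.76). Of ER chaperones, 1 of 20 fell in inputs (Hsp90b1, adjusted p 0.049) and 0 in IPs. The Hsp90b1 call ended in 8 of 12 omissions (all but naive cKI 2, naive controls 2 and 3, and control 1 at 1 h), and with library totals, lane or the replicate block.

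Of the glucocorticoid list 0 of 22 were called in inputs in the mean. In naive inputs 1 rose in cKI mice (median 0.09, 14 of 22 positive), and at 1 h 2 fell (median -0.21, 19 of 22 negative). Hif3a, a hypoxia-inducible factor subunit named here after its values were seen, was higher in naive cKI inputs (0.97, SE 0.08, adjusted p 0.00014) and lower at 1 h (-0.83, SE 0.08, adjusted p 0.00081); the other call at 1 h was Tsc22d3 (-0.47, SE 0.07, adjusted p 0.015). In IPs 1 of 21 fell in the mean, Dusp1 (-0.50, SE 0.10, adjusted p 0.034), a call that ended in 8 of 12 omissions (all but naive cKI 3, cKI 2 at 1 h, naive control 1 and control 1 at 1 h) and with lane (0.69). In naive IPs Dusp1 fell and Fkbp5 and Sult1a1 rose, and at 1 h 0 were called. Immediate-early genes, which neurons switch on after activity, fell in 2 of 25 cases in inputs (Ier2 and Nptx2; median -0.15) and 5 of 25 in IPs (median -0.34). Among the latter Fosb fell by 0.58 (adjusted p 0.018), a call that held in all 12 omissions; with lane as a covariate its adjusted p was 0.6. The other 4 were Klf6, Npas4, Egr3 and Dusp1, and none of them, nor Ier2 and Nptx2, kept the call with lane. Klf6 lost it without naive controls 2 or 3 or control 3 at 1 h. Npas4 lost it in 9 of 12 omissions (all but naive control 2 and controls 1 and 2 at 1 h) and without the count filter, and Egr3 in 9 (all but cKI 3 at 1 h, naive control 1 and control 1 at 1 h). Ier2 lost it in 6 (naive cKI 2 and 3, all 3 cKI at 1 h, and control 2 at 1 h) and with the replicate block. Nptx2 lost it in 10 (all but replicate 1 of naive cKI and of naive controls), with library totals and with the block.

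Conditioning changed none of the 9 genes by the main test. Called members numbered 0 of 9 in inputs in control mice (0.737% of all genes called), in cKI mice (0.0174%) and in the mean of both genotypes (0.818%). In IPs they numbered 0 of 8 in control mice (0.328%), in cKI mice (0.0459%) and in the mean (0.387%). DESeq2 called 0 in each of these 6 contrasts. With the replicate number as a block in edgeR, Atf4 was called in the IP mean, as given in the last section. At an unadjusted p under 0.05 there were 2 in the IP mean (Atf4 and Sesn2), 1 in control IPs (Sesn2), 1 in cKI IPs (Atf4) and 1 each in control inputs and in the input mean (Ddit4), and 0 in cKI inputs. In cKI inputs Atf4 and Ddit3 at 1 h lay just above the naive values without overlap; 13.3% of genes were apart in that contrast in either direction. None of the 9 was apart in control inputs (16.4% of genes), in the input mean (0.905%) or in the IP mean (1.06%). The tests of genotype by training called 0 members in inputs (0.0348% of all genes) and in IPs (0.0131%), with 0 at an unadjusted p under 0.05 and 0 by DESeq2.

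In IPs Atf4 had 126 ± 26.4 CPM in naive mice and 147 ± 23.5 at 1 h (SD, n = 6 mice each; log2 0.23, SE 0.07, adjusted p 0.15). The cKI IPs at 1 h lay above the naive cKI IPs without overlap, as was so for 16.6% of genes there, while the controls overlapped. Lane partly followed training among the cKI IPs. On the lane of the naive cKI IPs (97.5, 111 and 103 CPM) the cKI IP at 1 h had 115 CPM, and those on the other lane had 145 and 127. Sesn2 had 36.9, 35.5 and 38.8 CPM in naive control IPs and 47.2, 41.4 and 45.5 at 1 h, without overlap (log2 0.27, SE 0.10, adjusted p 0.36), as was so for 19% of genes in that contrast. In cKI IPs Sesn2 had 35.3, 31.7 and 43.2 CPM in naive mice and 42.5, 43.4 and 37.5 at 1 h, with overlap (log2 0.17, SE 0.10, adjusted p 0.5). Ddit4 in control inputs went from 56.7, 65.0 and 57.9 CPM to 75.0, 61.2 and 67.5, again with overlap (log2 0.20, SE 0.08, adjusted p 0.33).

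Genes of related pathways did rise at 1 h in the same libraries, in the mean of both genotypes. Of all genes tested, 0.818% were called there in inputs and 0.387% in IPs. Of the glucocorticoid list, which shares with Ddit4 a known response to corticosterone, 5 of 22 rose in inputs: Sgk1 by 0.73 (SE 0.10, adjusted p 0.0077), Errfi1 by 0.33 (SE 0.04, adjusted p 0.0015), Tsc22d3, Per1 and Pdk4. In IPs 2 of 21 rose, Errfi1 and Per1. By genotype, in inputs of control mice 7 rose and 1 fell (median 0.26, 18 of 22 positive), and in cKI mice 0 rose and 1 fell, Hif3a (median -0.05, 13 of 22 negative). The interaction had a median of -0.22 with 19 of 22 negative, and 1 gene was called, Hif3a (-1.81, SE 0.12, adjusted p 7.1e-06). In IPs 1 rose in control mice (Errfi1) and 0 were called in cKI mice. Of the 20 genes of ER chaperones and folding, 5 rose in inputs (Xbp1, Dnajc3, Pdia4, Herpud1 and Manf, by 0.21 to 0.29) and 0 in IPs, and 18 of 20 were positive in inputs. Xbp1, a transcription factor of the unfolded protein response, rose by 0.21 (SE 0.04, adjusted p 0.016), a call lost with lane as a covariate (0.081) and in 5 of 12 omissions: all 3 cKI libraries at 1 h, naive control 1, and control 3 at 1 h (adjusted p 0.051 to 0.056). Dnajc3, an inhibitor of the eIF2 kinase PERK, rose by 0.22 (SE 0.04, adjusted p 0.017), and its call was lost with lane as a covariate (0.19) and in 5 of 12 omissions: naive cKI 1, all 3 cKI libraries at 1 h, and control 3 at 1 h (adjusted p 0.051 to 0.074). Among the 12 omissions, the Pdia4 call held only without control 1 at 1 h, and those of Herpud1 and Manf only without naive control 2 or control 1 at 1 h. Pdia4 also lost its call with the replicate block, and Herpud1 and Manf theirs with library totals. The Pdk4 call ended in 9 of 12 omissions (adjusted p 0.056 to 0.13), all but cKI 3 at 1 h, naive control 2 and control 1 at 1 h. Of ATF4 targets, Gpt2 rose in IPs (log2 0.46, SE 0.06, adjusted p 0.0066) and Herpud1 in inputs. With lane as a covariate the calls of Gpt2 (0.11), Per1 (0.065 in inputs and 0.17 in IPs), Errfi1 in IPs (0.11), Pdk4 (0.28), Pdia4 (0.16), Herpud1 (0.29) and Manf (0.3) were lost, and those of Sgk1, Errfi1 and Tsc22d3 in inputs held. Per1 in IPs also lost its call without naive control 2 (0.053). Immediate-early genes rose in 7 of 25 cases in inputs and 5 of 25 in IPs, with Fosb up by 1.34 and 1.31. In the same inputs 7 of 10 oligodendrocyte markers fell at 1 h (median -0.32), and 10 choroid plexus markers had a median of 0.92 with 0 called; their part in these changes was not tested.

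Between fractions, 7 of the 9 genes differed, where 85.9% of 17453 genes did, so that a call there sets them little apart. Fold changes and tests in this paragraph come from fits without the mouse as a term. Ratios are within the mouse. Cebpb was higher in the IP than in the input in 12 of 12 mice, with a ratio of 1.25 to 3.3 and a median of 2.22 (log2 1.14, SE 0.10, adjusted p 6e-10). Sesn2 followed with a ratio of 1.49 to 2.15 and a median of 1.9, also in 12 of 12 mice (log2 0.88, SE 0.05, adjusted p 1.8e-13). Atf4 had a median ratio of 1.43 and Ddit4 of 1.42, each above 1 in 12 of 12 mice. Atf5 was lower in the IP in 12 of 12 mice, with a ratio of 0.711 to 0.948 (log2 -0.30, SE 0.05, adjusted p 1.3e-05). Its call was lost with lane as a covariate (edgeR adjusted p 0.2). Cebpg had a median ratio of 0.948 and Trib3 of 0.768, and edgeR with TMM called neither. DESeq2 called 8 of the 9, adding Cebpg at -0.12 (adjusted p 2e-04). Ddit3 (log2 0.22, SE 0.06, adjusted p 0.0018) and Chac1 (log2 0.28, SE 0.09, adjusted p 0.0045) were above 1 in 11 and 10 of 12 mice on this scale.

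**Figure D5:**
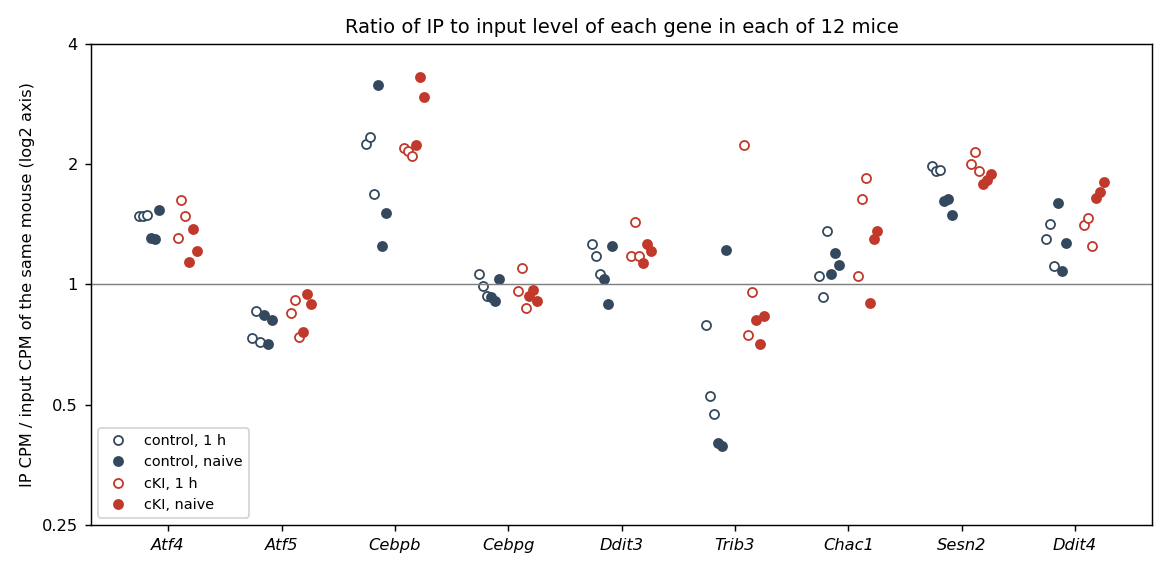
Ratio of IP to input CPM in each of 12 mice for the 9 genes (log2 axis), by genotype and training (control naive, control 1 h, cKI naive and cKI 1 h). Cebpb, Sesn2, Atf4 and Ddit4 lie above 1 in all 12 mice and Atf5 below 1 in all 12, under TMM scaling.

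The scaling between fractions matters for that order. With library totals in place of TMM, IP against input differences were lower by 0.306 on average on the log2 scale, which put Ddit3 at -0.08 and Chac1 at -0.03, both without a call, and gave Cebpg (-0.36) and Trib3 (-0.72) a call as lower in IPs. The signs of Cebpb, Sesn2, Atf4, Ddit4 and Atf5 stayed the same. The IP to input ratio of Atf4 was 1.14 to 1.63 in cKI and 1.3 to 1.54 in control mice, and its difference by genotype was -0.08 (SE 0.09, adjusted p 0.66). None of the 9 ratios differed by genotype (0 called; 0.0229% of all genes; 1 at an unadjusted p under 0.05, Ddit4) or by training (0 called; 0.00573%; 1 unadjusted, Sesn2), and DESeq2 called 0 in both. These tests of the ratio came from fits of group means without the mouse as a term.

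The genes whose pattern over libraries was most like that of Atf4 were found by the root-mean-square difference of log2 deviations from the gene's mean over the 12 libraries of a fraction. In inputs, out of 11842 genes, they were Fkbp4 (0.0644), Vgf (0.0671), Agfg2 (0.0703), Nyap1 (0.0731) and Rbm4b (0.0737), where the median gene was 0.201 away. In IPs, out of 10825 genes, they were Cntn2 (0.106), Dpy19l3 (0.107), Sbk1 (0.113), Vgf (0.115) and Dner (0.118), with a median of 0.297. Vgf, which encodes a secreted neuropeptide precursor, was in both sets. For Chac1 in inputs they were Paqr7 (0.15) and Pigv (0.162), and for Cebpb in IPs Gss (0.0967) and Obsl1 (0.12). The libraries of a fraction share lanes, depth and mice.

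Calls in the genotype contrasts were also listed for the 5 measured genes on each side of each member in RefSeq order. Of the 10 neighbours of a member at most 2 were called in a contrast (Ddit3, naive IPs). Of all genes tested, 3.7% were called in naive IPs, 1.69% in the IP mean, 3.15% in the input mean and 0.267% in inputs at 1 h. The neighbour calls were not tested against these shares. Beside Atf4, Cacna1i was lower in cKI IPs (mean -0.32, SE 0.06, adjusted p 0.022). Beside Ddit3, Kif5a and R3hdm2 were lower in naive IPs and Arhgap9 higher in inputs (0.81, SE 0.16, adjusted p 0.017). Ino80 beside Chac1 was higher in inputs (0.20, SE 0.03, adjusted p 0.0065) and Slc7a10 beside Cebpg lower (-0.20, SE 0.05, adjusted p 0.04). No called gene stood within that distance of Trib3, Atf5, Cebpb, Sesn2 or Ddit4 in those contrasts.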

How the data were processed

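Input and IP RNA of the hippocampus of 12 mice was sequenced as paired-end libraries of a directional kit, per the labels' protocols. The authors deposited raw counts by gene symbol, with an Ensembl transcript beside each. Per the submitters' processing notes, cutadapt, Bowtie and DESeq2 were used, with no roles stated. Counting tool, strand setting and genome build were not given in the sources used here, so positions are printed for RefSeq windows alone. All columns were mapped by the index in the sample titles (0 left out).

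The 12 libraries of a fraction were fitted together in edgeR 4.0.16 (R 4.3.3) with TMM, filterByExpr, 1 mean per group, the robust quasi-likelihood test and Benjamini-Hochberg adjustment over 15238 genes in IPs, 17232 in inputs and 17453 in all 24 libraries. The SE is the absolute log2 fold change over the square root of F. Simulated counts with these libraries were tested for cKI against control in the mean of both training states only. Of log2 changes of 0.5, 72% were recovered in the IP comparison and 65% in the input comparison. Recovery in naive mice alone, at 1 h alone or for smaller changes was not measured. False calls were 7.74% of the calls in the IP and 4.38% in the input comparison. The simulation held no lane effect, so it does not measure how calls fare where lane follows genotype. The mouse is shared by an input and its IP, per the labels, and their deviations from group means correlated at 0.0212 to 0.316 over 12 mice; with the mouse as a block the 7 calls between fractions were the same in number.

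The members and the 15 gene lists (254 genes, all found) were chosen with earlier results of these data known. Genes named beyond the members are those with the smallest p of each list (at most 6), member paralogs, the most alike genes (mean log2 CPM no lower than 2) and called neighbours; some list genes were added by name where a count is given. Alternatives were DESeq2 1.42.0 (size factors and Wald test), library totals (added after the data were seen), no count filter, lane as a covariate, libraries of a shared lane alone, replicate or mouse blocks and the omission of each library.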

Additional observations from a re-analysis of the deposited data

How the results depend on the processing

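Over the 15 results of the 9 genes that passed the test, 272 alternative values were computed, of which 224 kept direction and call, 45 lost the call and 3 changed sign. This pool holds 7 results of IP against input, where 85.9% of all genes were called. Most lost calls were by genotype. In inputs naive Chac1 lost its call in 12 of 19 alternatives, Trib3 in 12 of 18 and Atf4 at 1 h in 11 of 18. The other genotype calls of members were each lost in 1 to 3. The sign changes were in IP against input: Ddit3 at -0.08 and Chac1 at -0.03 with library totals, and Chac1 at -0.14 with lane as a covariate. Counts of called members moved as follows. With lane as a covariate they were 0 for naive IPs, the IP mean, inputs at 1 h and the input mean, 1 for naive inputs and 4 for IP against input. DESeq2 called 2 in naive IPs, 2 in the IP mean, 2 in inputs at 1 h, 4 in the input mean and 8 between fractions. Without the count filter naive IPs had 2, library totals left 0 in inputs at 1 h, and the naive inputs of a shared lane had 1. With library totals, 39 of 72 group mean levels moved by over 1 SD, with ratios of 0.888 to 1.12 and a median ratio of 1. ATF4 targets called were 0 with lane in both fractions, 9 in IPs by DESeq2 and 9 in inputs with library totals. With the replicate number as a block there were 2 members in naive IPs (Chac1 added, adjusted p 0.037), 1 in the IP training mean (Atf4, adjusted p 0.033), 1 in naive inputs, 0 in inputs at 1 h, 2 in the input mean (as with library totals; Trib3 lost) and 7 ATF4 targets in inputs; same-numbered samples correlated at -0.186 to 0.403 in IPs (6 of 18 pairs over 0.1) and -0.115 to 0.0811 in inputs (0 of 18). Since not every pair was over 0.1 and the labels give the numbers no shared source, they were not treated as pairs. Omitting each library gave 0 to 3 members in naive IPs, 0 to 2 in naive inputs, 0 to 1 in inputs at 1 h, 2 to 3 in the input mean, 1 in the IP mean, 7 to 8 between fractions, 5 to 17 ATF4 targets in inputs and 3 to 8 in IPs, and 0 members in each training, interaction and ratio contrast. The cause of these moves was not tested. Over all genes, the count called in naive IPs went from 564 to 22 without naive control replicate 2, to 40 without naive control replicate 3 and to 1 with lane as a covariate. Depth limits Trib3, at 3 to 22 counts per input, most.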
